A study of Mus musculus with 9 samples.

Results

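Of the 9757 RARA peaks mapped in retinoic acid treated mouse embryonic stem cells, 367 (3.76%) had their midpoint in 2 windows of 2 Mb, chr4:145000001-147000000 and chr13:65000001-67000000 in mm9. The chromosome 4 window held 222 of them and the chromosome 13 window 145. The windows were chosen by the density of these RARA peaks, the highest among 2 Mb windows laid side by side along the genome. Density, strength, width and spacing of these peaks, all from that ChIP experiment, are therefore given as description. The accessible DNA regions and the enhancers of the same windows did not enter the choice, but how many of them overlap a RARA peak depends on that density.

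All samples came from E14, 1 line of mouse embryonic stem cells grown without feeder cells. RARA binding was measured by ChIP-seq in 1 library from cells that had 1 µM retinoic acid (RA) and no leukemia inhibitory factor (LIF) for 4 h, beside 1 library of input DNA from such cells. The antibody was a rabbit polyclonal against RAR. Enhancer activity was measured by FAIRE-STARR-seq in 3 samples with 1 µM RA and no LIF for 4 h and in 3 samples with LIF for 4 h. Beside them stood 1 sample of the plasmid library. That library carried accessible DNA isolated from cells treated with 1 µM RA for 4 h, and each reporter replicate combined 4 transfections. The deposited enhancer lists were called on merged replicates and hold no value per replicate. Every comparison below is therefore between deposited regions, carries no test, and has no replicate check.

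RARA is a nuclear receptor that binds DNA as a heterodimer with RXR and activates transcription when RA, its ligand, is bound. LIF is the cytokine that keeps mouse embryonic stem cells pluripotent, and its withdrawal together with RA starts differentiation. In FAIRE, DNA depleted of nucleosomes is recovered after formaldehyde crosslinking. In STARR-seq such fragments are cloned into a reporter transcript, so that an active fragment is read in its own RNA. Mouse chromosomes 4 and 13 are known for large clusters of young KRAB zinc finger genes, whose copies resemble each other closely and whose proteins repress transposable elements. Genes and repeats of the windows were not analysed here, since the reference tables at hand were of another assembly, so the regions are named by mm9 position alone.

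No other window came near this crowding when the genome was divided into windows of 2 Mb, of which 1316 held a region of any list. The median over the other windows was 4 RARA peaks and their highest count was 71, at chr3:95000001-97000000. Next came 65 peaks at chr13:21000001-23000000 and 63 at chr12:115000001-117000000. Per Mb, the 2 windows held 91.75 RARA peaks, against 3.573 over the rest, a ratio of 25.7. Among RARA peaks of at least 3.065-fold, the median of the whole list, the densities were 21.25 per Mb, against 1.824, a ratio of 11.6. Accessible DNA did not follow: the windows held 206 and 97 library regions on chromosomes 4 and 13, against a median of 118.5 and a maximum of 491 over the other windows. Their ranks in library regions were 342 and 763 of the 1316.

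**Figure D1:**
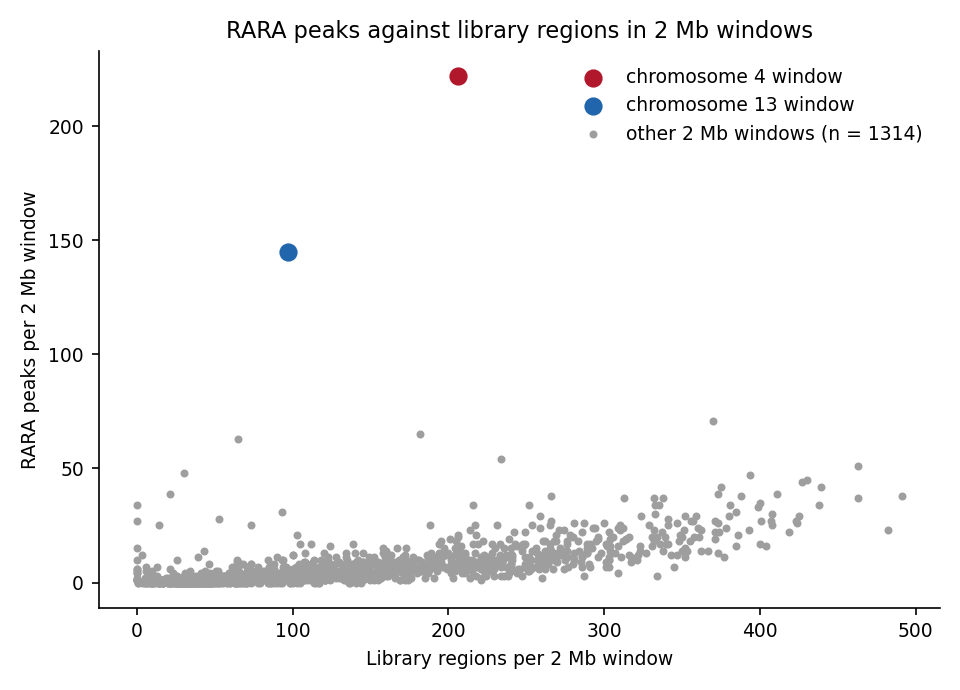
RARA peaks (vertical axis, count) against library regions (horizontal axis, count) in each 2 Mb window of the genome, 1 point per window. The chromosome 4 window lies at 222 RARA peaks and 206 library regions and the chromosome 13 window at 145 and 97, while no grey point of the other windows exceeds 71 RARA peaks.

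RARA peaks were fewer on either side of both windows. The 2 inner Mb of the chromosome 13 window held 51 and 94 RARA peaks, against 7 in the Mb before and 8 in the Mb after. On chromosome 4 the inner Mb held 104 and 118, against 15 in the Mb before and 30 in the Mb after. Median local background was 22.1 fragments in that last Mb, chr4:147000001-148000000, against 9.53 fragments in the Mb that follows it. The edge of the chromosome 4 window thus cuts through a run of peaks: the last peak inside, at chr4:146997401-146997556, had a 2.07-fold enrichment and the first outside, at chr4:147010269-147010564, a 1.77-fold enrichment. At the other edge, the first peak inside, chr4:145006343-145006598, had 2.75-fold and the last outside, chr4:144998652-144999154, 1.83-fold enrichment. On chromosome 13 the first peak inside, chr13:65153749-65154321, lay 184180 bp from its nearest neighbour and had a 5.68-fold enrichment, against 3.72-fold for the last before the window at chr13:64670262-64670489. The last inside, chr13:66969734-66969934, had 3.21-fold and the first after it, chr13:67005967-67006322, 4.31-fold enrichment.

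The peaks were spread along the whole chromosome 4 window but lay mostly in the later part of the chromosome 13 window. In bins of 100 kb, the chromosome 4 window had a median of 9.5 RARA peaks, at most 24, and none of its 20 bins was empty. The chromosome 13 window had a median of 6, at most 18, and 2 of its 20 bins were empty. Its first 5 bins held 8 of its 145 peaks, and the crowding there began inside the window edge. Library regions were patchier on chromosome 4: 6 bins held none at all, yet those bins held 45 RARA peaks. The 2 bins richest in library regions there, with 30 and 31, lay near opposite ends of the window and held 23 and 11 RARA peaks. Across the 20 bins of a window, RARA and library counts had a Pearson correlation of 0.53 on chromosome 4 and 0.175 on chromosome 13 (Spearman 0.494 and 0.142); the bins share the ChIP library and the plasmid library, so these values describe the 2 windows.

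**Figure D2:**
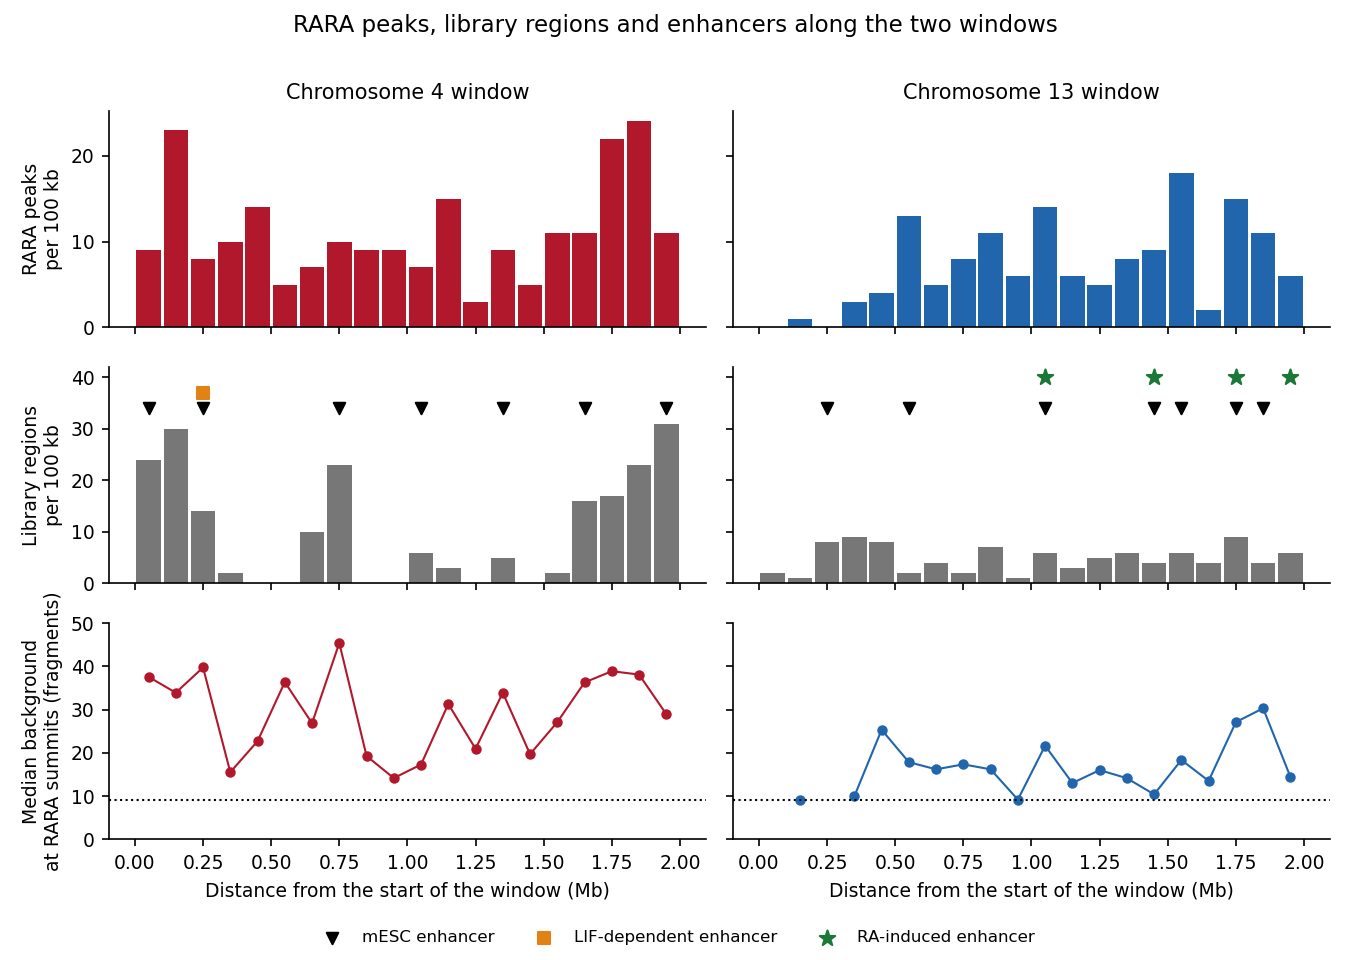
RARA peaks per 100 kb (top), library regions per 100 kb with the bins that hold enhancers marked above them (middle), and median local background at RARA summits in fragments (bottom) along the windows of chromosomes 4 and 13, by distance from the window start in Mb. The dotted line is the lowest background of the RARA list, 9.207 fragments. RARA bars reach 24 on chromosome 4 and 18 on chromosome 13, including over stretches of the chromosome 4 window with no library region.

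The crowded peaks were close neighbours. The nearest other RARA peak lay a median of 2215 bp away in the windows, against 20851 bp for the 9390 peaks elsewhere. Among peaks of at least 3.065-fold these medians were 14660 bp in the windows, against 53990 bp elsewhere. In the windows 277 of 367 (75.5%, 95% Wilson interval 70.8 to 79.6%) had a neighbour within 5 kb, against 2819 of 9390 (30.0%, 29.1 to 31.0%) outside. Peaks listed with several summits made up 93 of 367 (25.3%, 21.2 to 30.0%) in the windows, against 1166 of 9390 (12.4%, 11.8 to 13.1%) outside. In the windows 72 peaks had 2 summits, 18 had 3 and 3 had 4. The intervals cover counting error alone, and neighbouring regions are not independent.

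By the caller's fold enrichment, the ratio of fragments to local background at the summit, most of these peaks were weak. The median was 2.51-fold in the windows (95% interval of the median over peaks 2.44 to 2.62), against 3.10-fold outside (3.07 to 3.14). The chromosome 4 peaks were the weaker group, at 2.35-fold, against 2.82-fold on chromosome 13. On chromosome 4, 49 of 222 peaks were below 2-fold, 35 reached 3-fold and none reached 5-fold. On chromosome 13, 11 of 145 were below 2-fold, 61 reached 3-fold and 6 reached 5-fold. The median of the whole list, 3.065-fold, was reached by 14.0% on chromosome 4 and 37.2% on chromosome 13, against 51.1% of the 9390 peaks outside. The significance of the peaks as listed was nevertheless not low at the median: the median −log10 q was 6.67 in the windows, against 6.04 outside. The upper quartile was lower in the windows, at 10.3, against 12.2 outside. By chromosome the median was 6.25 in the chromosome 4 window, against 5.92 on the rest of chromosome 4. It was 6.81 in the chromosome 13 window, against 8.09 on the rest of chromosome 13. Median width was 278 bp in the windows, against 255 bp outside, an order that turned among peaks of at least 3.065-fold, where the ratio of the medians was 0.981.

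The low fold went with a high local background and not with few ChIP fragments. The fragments at each summit and the background were worked back from the deposited fold and p-value, searching whole numbers of fragments only. For 9756 of 9757 RARA peaks the deposited −log10 p was met within 0.001. The median pile-up at the summit was 64 fragments in the windows (74 on chromosome 4 and 54 on chromosome 13), against 37 fragments outside. The median local background was 25.4 fragments in the windows (31.2 and 17.0), against 9.86 fragments outside. Pile-up less background had a median of 37.6 fragments in the windows, against 25.8 outside; a peak on a higher background needs a larger excess to be listed.

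The lowest background in the list, 9.207 fragments, was shared by 3820 of the 9756 peaks that could be worked back. Background was more than 2 times that value at 246 of 367 window peaks (67.0%, 62.1 to 71.6%; 81.5% on chromosome 4 and 44.8% on chromosome 13), against 893 of 9390 outside (9.51%, 8.93 to 10.1%). It was more than 4 times that value, over 36.83 fragments, at 295 peaks of the genome, of which 86 (29.2%) lay in the windows, 75 on chromosome 4 and 11 on chromosome 13. Among the 112 windows of the genome with at least 20 RARA peaks, the chromosome 4 window ranked 3 and the chromosome 13 window 7 by median background. The highest, 64.96 fragments, belonged to chr8:19000001-21000000 with 48 RARA peaks, and the median of those outside the windows was 10.48 fragments. Whether the background was taken from the input library or from the ChIP library itself is not stated in the labels or files, and its part in the crowding was not tested.

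**Figure D3:**
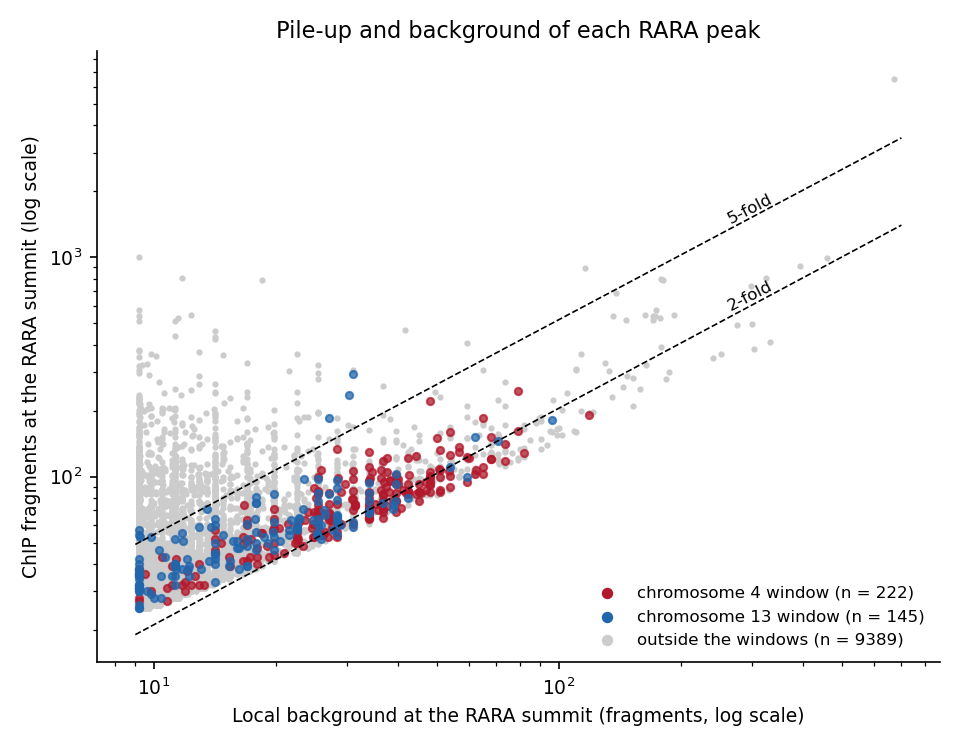
ChIP fragments at the RARA summit (vertical axis, log scale) against the local background there (horizontal axis, fragments, log scale), 1 point per RARA peak; dashed lines mark 2-fold and 5-fold enrichment. The 222 chromosome 4 peaks crowd along the 2-fold line at a median background of 31.2 fragments, the 145 chromosome 13 peaks lie at lower background (median 17.0), and the 9389 peaks elsewhere with a recovered value gather at the left edge.

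Compared at like background, fold enrichment in the windows came close to that of other peaks. At the lowest background the median was 3.33-fold for 26 window peaks, against 3.23-fold for 3794 peaks outside. Above it and up to 2 times it was 2.97-fold for 95 window peaks, against 3.04-fold for 4702 outside. From 2 to 4 times it was 2.44-fold for 160 window peaks, against 2.63-fold for 684 outside. Over 4 times it was 2.005-fold for 86, against 2.06-fold for 209. That class has no upper bound and background reached 118.7 fragments in the windows and 669.95 outside, so backgrounds need not be alike there. Median pile-up in the lower 3 of these classes was 33, 42 and 67 fragments in the windows, against 32, 38 and 66 outside. Fold and pile-up are tied to each other through the background, so these close pile-ups add nothing to the close folds. Over 4 times the pile-up was lower in the windows, at 98 fragments, against 133 outside. Compared instead at like significance, window peaks had the lower fold in each of 5 ranges of −log10 q. Their median background was higher in each range, and at a given p-value fold falls as background rises. This order therefore adds nothing to the difference in background. For −log10 q from 6 to 10 the medians were 2.63-fold, 61 fragments and a background of 22.6 fragments over 105 window peaks, against 3.38-fold, 38 fragments and 9.86 fragments over 1821 peaks outside.

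The strongest RARA peak of the windows lay on chromosome 13 at chr13:66091667-66092597, 9.19-fold, with 294 fragments on a background of 31.1 and a −log10 q of 169.89. It covers enhancers of the mESC and RA-induced lists, described further on. Next on chromosome 13 came chr13:66816221-66817401, which was also the widest peak there at 1181 bp, with 7.53-fold enrichment and 235 fragments, and chr13:65847827-65848349, with 6.61-fold enrichment and 185 fragments. Both lay in library regions and at no enhancer. Ranks 4 and 5, chr13:65153749-65154321 at 5.68-fold and chr13:66648156-66648650 at 5.39-fold, had 57 and 54 fragments and both stood on the lowest background of the list.

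The strongest peaks of chromosome 4 were more modest. The highest was chr4:146129154-146129664, at 4.58-fold with 133 fragments on a background of 28.3, and it overlapped no library region. Next was chr4:145127231-145128087, at 4.53-fold with 221 fragments on 48.1 and a −log10 q of 68.7, in a library region. Ranks 3 to 5, at chr4:146092311-146093213, chr4:146502386-146502665 and chr4:146529451-146529653, had 4.24-fold, 4.02-fold and 3.83-fold enrichment, and none of them overlapped a library region. Of the top 5 of each window, none on chromosome 4 was at an enhancer and 1 on chromosome 13 was. The widest chromosome 4 peak, chr4:146713555-146714746, spanned 1192 bp with 3 summits and 3.78-fold enrichment. The peaks with most summits had 4: chr4:145149127-145149741 at 2.20-fold, chr13:65569554-65570167 at 3.82-fold and chr13:66951813-66952795 at 3.08-fold.

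At the other end of the range stood peaks with many fragments on a high background; these regions were picked after their values were seen. The peak of lowest fold on chromosome 4, chr4:145036678-145036848, had 128 fragments on a background of 82.0 and a fold of 1.55. The peak of highest background, chr4:146824991-146825303, had 191 fragments on 118.7 and a fold of 1.60. On chromosome 13 the lowest fold, 1.67, was at chr13:65481709-65482080 with 100 fragments on 59.4, and the highest background, 96.1, at chr13:65585851-65586074 with 181 fragments and a fold of 1.87. Each of these 4 peaks had more fragments than the median peak outside the windows, 37, and a lower fold. Both follow from the pick, since the background alone exceeded 37 fragments at all 4. At least 100 fragments were reached by 44 of 222 peaks on chromosome 4 and 9 of 145 on chromosome 13. The upper quartile of the pile-up was 95 and 67 fragments there, against 53 outside.

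Most RARA peaks of the windows lay outside the accessible DNA that the plasmid library carried. Across the genome 55.6% of RARA peaks overlapped a library region by at least 1 bp. In the windows 80 of 367 did (21.8%, 17.9 to 26.3%), against 5342 of 9390 outside (56.9%, 55.9 to 57.9%), and in the central Mb of each window 14.0% did. The shares of the windows were close, at 49 of 222 on chromosome 4 (22.1%, 17.1 to 27.98%) and 31 of 145 on chromosome 13 (21.4%, 15.5 to 28.8%), against 58.2% on the rest of chromosome 4 and 57.8% on the rest of chromosome 13. At background up to 4 times the lowest, the windows were lower in each class. At the lowest background 2 of 26 window peaks were in the library (7.69%), against 56.0% outside. The shares were 16.8% of 95 window peaks, against 60.2% outside, for a background up to 2 times the lowest, and 16.9% of 160 window peaks, against 52.8% outside, from 2 to 4 times. Over 4 times the order turned, with 35 of 86 window peaks (40.7%), against 27 of 209 outside (12.9%).

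**Figure D4:**
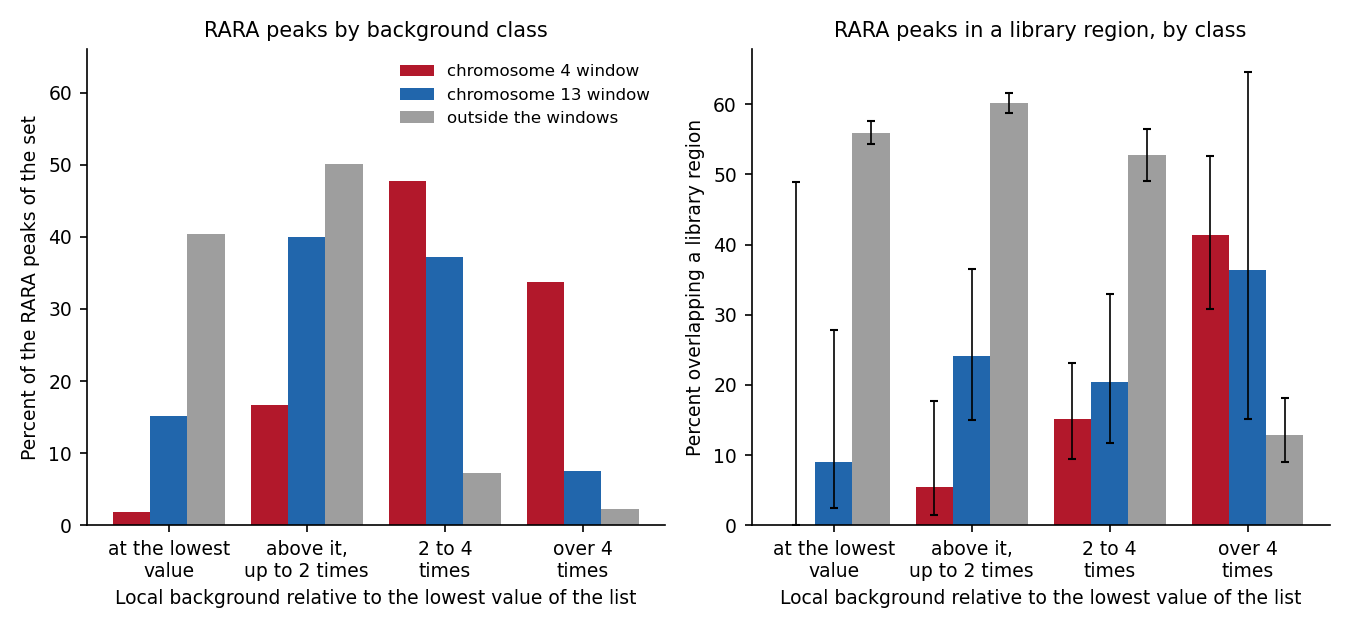
Left, percent of the RARA peaks of each set in 4 classes of local background relative to the lowest value of the list. Right, percent of the peaks of each class that overlap a library region, with 95% Wilson intervals. On chromosome 4, 33.8% of peaks fall in the class over 4 times, against 2.23% outside, and the grey bars of the right panel are the highest in every class but that one.

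Peaks in the library had the higher background and width among those of the windows. The 80 in a library region had a median of 83 fragments on a background of 33.9 and a width of 364 bp, against 61 fragments on 24.8 and 258 bp for the 287 in none. Their folds were close, at 2.465 and 2.54. Outside the windows the peaks in and out of the library had 38 and 36 fragments, on backgrounds of 9.92 and 9.86, and were 279 and 231 bp wide, so a width difference was seen there too. The difference in background between peaks in and out of the library was thus larger in the windows than elsewhere, and it was larger on chromosome 4, at 39.6 against 28.3 fragments, than on chromosome 13, at 17.9 against 17.0.

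Seen from the library, the same overlap was high. Across the genome 2.94% of library regions overlapped a RARA peak. In the windows 81 of 303 did (26.7%, 22.1 to 32.0%), against 2.90% of 186656 elsewhere, with 51 of 206 on chromosome 4 (24.8%) and 30 of 97 on chromosome 13 (30.9%). The windows were chosen for their RARA peak density, so this raised share cannot be told apart from that choice. The ratio of the shares, 9.23, was below the 25.7-fold ratio in RARA peaks per Mb. With RARA peaks of at least 3.065-fold both ratios were lower, at 4.66 for the shares and 11.6 for the density. RARA peaks covered 3.76% of the chromosome 4 window and 2.45% of the chromosome 13 window, and library regions 4.00% and 2.08%.

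The library regions themselves were ordinary in number and strength. Their density was 75.75 per Mb in the windows, against 71.03 elsewhere, although the central Mb of each window gave 43.5 per Mb. Their median fold over background was 5.33 in the windows (5.00 to 5.93), against 5.48 elsewhere (5.46 to 5.50). By window it was lower than elsewhere on chromosome 4, at 4.79 (4.57 to 5.33), and higher on chromosome 13, at 6.67 (5.67 to 7.67). The median background of library regions was 3.50 fragments on chromosome 4 and 2.00 on chromosome 13, against 2.46 outside. The chromosome 13 value is the lowest of the library list, shared by 36.2% of its regions, and the rest of that chromosome had 2.17. Library background was thus higher than elsewhere on chromosome 4 and at its lowest value on chromosome 13, while the local background at RARA summits was higher than elsewhere in both. Library regions with a RARA peak had a higher fold than those without, in the windows (6.94 and 5.00) and elsewhere (8.17 and 5.40). The strongest library regions of chromosome 13 were chr13:66091852-66092448 at 36.5-fold, chr13:65515967-65516385 at 35.9-fold and chr13:66799056-66799695 at 35.0-fold, and all 3 held an mESC enhancer. On chromosome 4 they were chr4:146649253-146649949 at 18.4-fold, chr4:146719818-146720098 at 16.2-fold and chr4:146605561-146606274 at 15.0-fold, of which the first and the last held one.

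The windows held 19 mESC enhancers, regions whose reporter RNA in LIF exceeded the plasmid input, with 9 on chromosome 4 and 10 on chromosome 13. Among windows of 2 Mb those counts ranked 82 and 63 of 1316, against a median of 3 and a maximum of 25 over the others. Across the genome 2.47% of library regions held an mESC enhancer. In the windows 19 of 303 did (6.27%, 4.05 to 9.59%), against 2.46% elsewhere, and on chromosome 13 10 of 97 did (10.3%, 5.70 to 18.0%), against 9 of 206 on chromosome 4 (4.37%, 2.32 to 8.09%). The chromosome 4 interval includes the share elsewhere and the chromosome 13 interval lies above it.

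Enhancers whose activity differed between the treatments were few. LIF-dependent enhancers, with more reporter RNA in LIF than in RA, were held by 0.311% of library regions in the genome and by 1 of 303 in the windows (0.330%), on chromosome 4. RA-induced enhancers, with more reporter RNA in RA than in LIF, were held by 0.201% of library regions in the genome and by 4 of 303 in the windows (1.32%, 0.515 to 3.35%), against 0.199% elsewhere. All 4 lay on chromosome 13 (4 of 97 library regions, 4.12%, 1.62 to 10.1%), and none of the 206 regions on chromosome 4 held one, which allows a share of up to 1.83% by the Wilson interval. Per 1000 library regions there were 13.2 RA-induced enhancers in the windows, and 22.99 in the central Mb of each, against 2.025 elsewhere. A count of 4 RA-induced enhancers was also the highest of any other 2 Mb window.

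RARA peaks of the windows were seldom at an enhancer, yet the enhancers often had a RARA peak. Across the genome 9.19% of RARA peaks overlapped an enhancer of any list. In the windows 11 of 367 did (3.00%, 1.68 to 5.29%), against 886 of 9390 outside (9.44%, 8.86 to 10.0%). All 11 lay in library regions, as did 884 of the 886 outside. Among RARA peaks in the library the shares were nearer each other, at 11 of 80 in the windows (13.75%, 7.86 to 22.97%), against 884 of 5342 outside (16.6%, 15.6 to 17.6%). Over all RARA peaks, those of at least 3.065-fold gave 2.35% in the windows, against 11.7% outside, and the central Mb of each window gave 1.83%. The 11 had a median fold of 2.56, with 93 fragments on a background of 37.04, and the 356 other window peaks 2.50-fold with 64 fragments on 25.4. The 886 at enhancers outside had 3.42-fold with 44 fragments on 10.97. Of mESC enhancers, 18.5% overlapped a RARA peak in the genome, 11 of 19 in the windows (57.9%, 36.3 to 76.9%) and 855 of 4655 elsewhere (18.4%, 17.3 to 19.5%). Of RA-induced enhancers, 30.9% did in the genome, 3 of 4 in the windows (interval 30.1 to 95.4%) and 115 of 378 elsewhere (30.4%, lower bound of the interval 26%, upper bound 35.2%). These shares stand beside a RARA peak density that was itself the ground for choosing the windows, so the enhancers' share of RARA peaks cannot be told apart from it.

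The strongest case combined all 3 readouts at one place on chromosome 13. The mESC enhancer chr13:66091989-66092348 had 255 reporter fragments in LIF on a background of 21.1, an 11.6-fold enrichment. The RA-induced enhancer chr13:66092022-66092256 overlaps it and had 296 reporter fragments in RA on a background of 55.9, 5.22-fold. The RARA peak of 9.19-fold lay over both, its summit 16 bp from the summit of the mESC enhancer and 19 bp from that of the RA-induced one. The library region there, at 36.5-fold with 401 plasmid fragments, was the strongest of both windows.

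The other RA-induced enhancers of chromosome 13 were smaller. The one at chr13:66412916-66413284 had 62 fragments (95% Poisson interval 47.5 to 79.5) and 8.74-fold enrichment, and its RARA peak of 2.92-fold had its summit 224 bp away. The one at chr13:66726487-66726841 had 52 fragments (38.8 to 68.2) and 6.05-fold enrichment, with a RARA peak of 2.69-fold overlapping it and the nearest RARA summit 522 bp away. Both overlap mESC enhancers, with folds of 11.6 and 9.67. The fourth, chr13:66924264-66924546, had 16 fragments (9.145 to 25.98) and 5.59-fold enrichment, overlapped no mESC enhancer and no RARA peak, and had the nearest RARA summit 549 bp away. The median fold of the 4 was 5.82, against 5.46 for the 378 RA-induced enhancers elsewhere.

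Of the remaining mESC enhancers on chromosome 13, the strongest was chr13:66811950-66812331, with 217 fragments, 21.0-fold enrichment and a 2.41-fold RARA peak whose summit was 8 bp away. The one at chr13:66837348-66837868 was 17.9-fold with 28 fragments and no RARA peak, the nearest summit being 831 bp off. Those at chr13:66781728-66782040, chr13:66515357-66515798 and chr13:66799178-66799417 had 6.998-fold, 5.31-fold and 4.48-fold enrichment and RARA peaks of 2.99-fold, 2.56-fold and 1.81-fold. The 2 nearest the start of the window, chr13:65214115-65214466 at 12.3-fold and chr13:65516041-65516331 at 8.61-fold, had no RARA peak, and the nearest RARA summits were 60192 bp and 5879 bp away. Of the 10 on this chromosome, the RARA peaks thus lay at 7, all in the later Mb.

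On chromosome 4 the most active enhancer had no RARA peak. It lay at chr4:145699996-145700394, with 107 fragments on a background of 1.30 and 46.9-fold enrichment, and its activity score of 4.04 in the authors' deposited table ranked 100 among all mESC enhancers. The nearest RARA summit was 466 bp away. The enhancers at chr4:145022174-145022438 (13.7-fold), chr4:145230519-145230896 (8.60-fold), chr4:146034349-146034962 (5.64-fold) and chr4:146649477-146649884 (4.88-fold) also had none.

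The 4 chromosome 4 enhancers with a RARA peak had from 22 to 28 reporter fragments. The enhancer chr4:146350768-146351137 was 17.4-fold and lay under the RARA peak with most fragments in this window, 245 on a background of 79.2, 3.07-fold, with the summits 76 bp apart. The enhancer chr4:145265247-145265768 was 16.4-fold and overlaps the LIF-dependent enhancer chr4:145265458-145265681, which was 5.08-fold. Its RARA peak was 1.76-fold, with 120 fragments on 67.8. The enhancers chr4:146928569-146928939 and chr4:146605650-146605871 were 11.6-fold and 4.50-fold, with RARA peaks of 1.94-fold and 2.50-fold. All 4 of these RARA peaks stood on a background more than 4 times the lowest of the list.

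**Figure D5:**
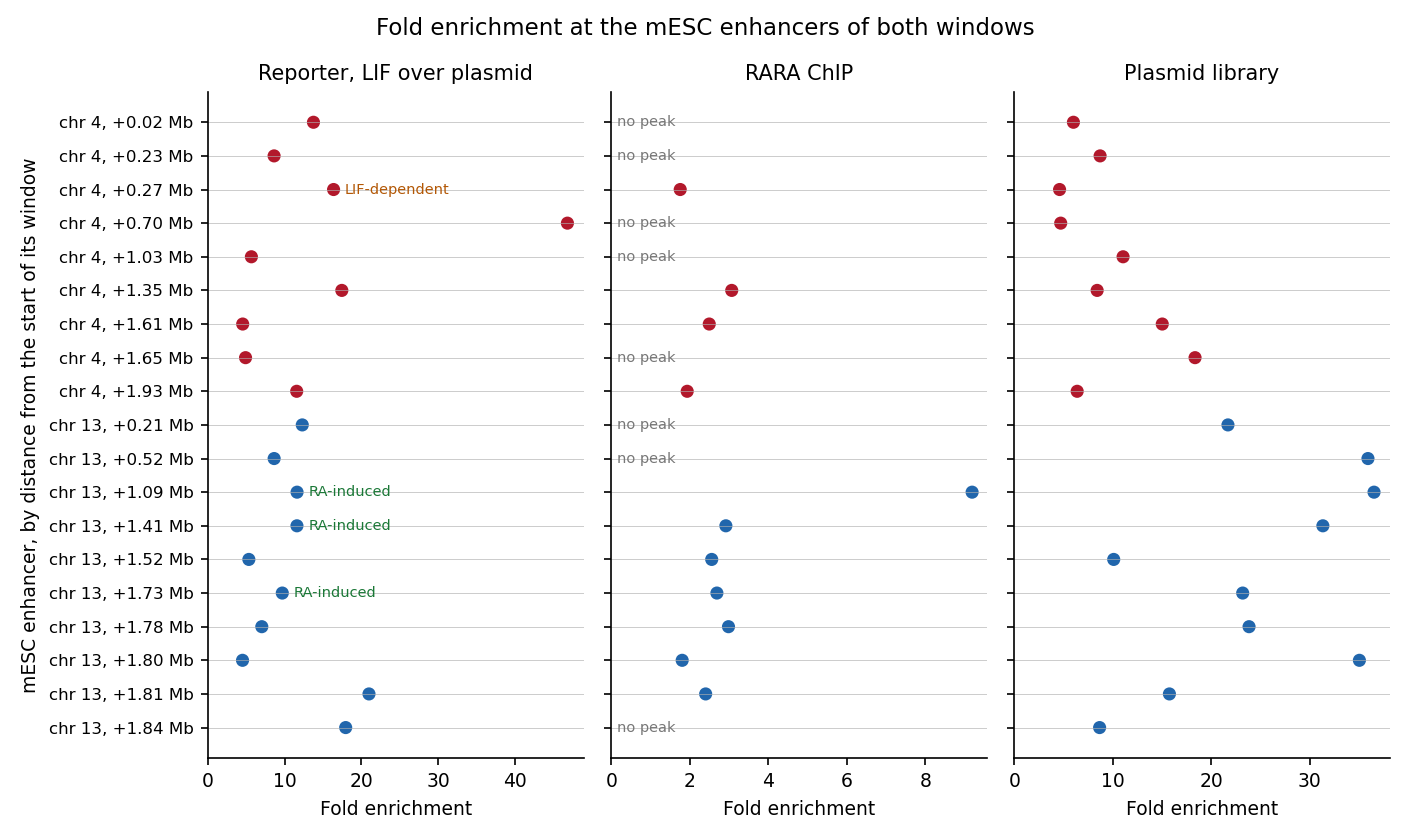
Fold enrichment of the reporter in LIF over plasmid (left), of the RARA peak (middle, "no peak" where none overlaps) and of the library region (right) at each of the 19 mESC enhancers, ordered by distance from the window start; those that overlap an RA-induced or LIF-dependent enhancer are marked. Reporter folds run from 4.48 to 46.9, and the RARA fold stays at 3.07 or below at all but the chromosome 13 enhancer of 9.19.

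Over all 19, reporter strength in the windows was within the range found elsewhere. The median fold was 11.6 (4.48 to 46.9), against 8.62 (2.30 to 62.7) for the 4655 mESC enhancers elsewhere, and the median activity score 2.79, against 2.51. All 19 lay in library regions, as did 4603 of the 4655 elsewhere (98.9%). Those library regions had a median fold of 8.42 on chromosome 4 and 23.5 on chromosome 13, against 12.8 at mESC enhancers elsewhere. Where a RARA peak overlapped, its summit lay a median of 134 bp from that of the enhancer, over a range of 8 to 641 bp. Where none did, the nearest RARA summit lay within 1 kb for 3 of 8.

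Recurring distances between RARA summits were counted within each window, without a count expected from the spacing of the peaks to set them against. Among 24515 pairs of RARA summits more than 1000 bp apart on chromosome 4, no distance, taken to within 25 bp, occurred more than 9 times. Among 10422 such pairs on chromosome 13 none occurred more than 5 times. The library regions of the same windows gave like counts, 9 of 21092 pairs and 5 of 4648. In the windows next in RARA peaks, on chromosomes 3, 13 and 12, no distance between RARA summits occurred more than 3 times, among 2482, 2073 and 1949 pairs. The median gap between neighbouring RARA summits was 4247 bp on chromosome 4 and 6258.5 bp on chromosome 13, and the longest was 81718 bp and 184184 bp. On chromosome 4 that longest gap was also the most frequent distance.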

How the data were processed

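The build was mm9, and reads passed through MACS2, Bowtie2, SAMtools, deepTools and UMI-tools, per the submitters' processing notes, which give no order. Settings and versions: not given in the sources used here. Per the labels' protocols, reporter cDNA carried a molecular identifier of 8 nucleotides. The authors deposited 5 peak lists without headers, each with a score (10 times the −log10 q as a whole number), a fold enrichment (a ratio at the summit), −log10 p, −log10 q and a summit position. A further deposited table gives an activity score per mESC enhancer, on an unstated scale. Peak names speak of merged replicates, so the authors called enhancers on pooled samples. All fold, −log10 and score values are the authors' own and describe, rank or filter peaks within a list. A list may hold part of the peaks called, by an unstated filter.

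Where rows shared a region, the one with the highest −log10 q was kept (9757 of 11366 rows for RARA, 186959 of 195417 for the library). Fragments at the summit and local background were solved from the deposited fold, (fragments + 1)/(background + 1), and the Poisson tail given as −log10 p; a solution counted when the deposited −log10 p was met within 0.001. It was met for 9756 of 9757 RARA peaks and for every library region and enhancer. The procedure was tested on peaks simulated with the same formula. Library depths are not known. Background is scaled by the caller, so fragments are comparable within a list only.

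Peaks belonged to a window by their midpoint; regions were shared at an overlap of at least 1 bp. Shares carry 95% Wilson intervals, medians 95% order-statistic intervals and fragments 95% Poisson intervals, all for counting error alone. No test was run, since 1 ChIP library and pooled enhancer lists give no replicate value. The named regions were, per window, the 5 RARA peaks of highest fold, the widest, those with most summits, those at each edge, the 3 strongest library regions and every enhancer; others are marked in the text. The windows, members and lists were chosen with earlier results of these data known. Alternatives changed the overlap, the RARA and library thresholds, the collapse, the window and the comparison regions. Python 3.11.15 was used with SciPy 1.17.1, pandas 2.3.3, NumPy 2.4.6 and, for plots, Matplotlib 3.10.9. Coordinates are mm9, counted from 1; no sequence of that build was used here.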

Additional observations from a re-analysis of the deposited data

How the results depend on the processing

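Each result was recomputed as the ratio of the windows to the rest under 57 alternatives, of which 41 left it within its interval or, for a density, within 1.5 times. The share of RARA peaks in the library was 0.383 times that outside, 0.303 where the RARA summit had to lie inside the library region, and 0.247 in the central Mb of each window. The fold ratio was 0.809, 0.9 among RARA peaks of at least 3.065-fold and 0.874 in the central Mb. Those 2 settings, in that order, gave 0.981 and 1.0 for width (1.09 as reported, so the first reversed its order), 1.43 and 1.47 for several summits (2.04), and 0.272 and 0.133 for the distance to the nearest peak (0.106). The stricter RARA threshold also gave 11.6 for RARA peaks per Mb (25.7) and 4.66 for library regions with RARA (9.23), which were 7.35 with the RARA summit inside. Library regions per Mb gave 0.612 in the central Mb (1.07). The share of RARA peaks at an enhancer (0.318) gave 0.201 under the stricter threshold and 0.194 in the central Mb, within its interval of 0.177 to 0.570. Per 1000 library regions, the mESC enhancer ratio (2.51) stayed between 2.49 and 2.77. The RA-induced ratio (6.52), from 4 enhancers, has a wide interval of 2.43 to 17.5. Its value of 11.4 in the central Mb lies inside that interval and rests on fewer enhancers, all on chromosome 13. A pair of alternatives was chosen after seeing the data: up to 4 times the lowest background the library share gave 0.277, and up to 2 times the fold ratio was 0.969. The causes were not tested. No paired analysis was possible because the lists were called on merged replicates and hold no value per replicate. With 19 mESC and 4 RA-induced enhancers, shares over enhancers have wide intervals, and leaving out a replicate was not possible.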
